A study of Aspergillus nidulans with 9 samples.

Results

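Of the 10988 rows of a count table of *Aspergillus nidulans*, 65 genes changed in opposite directions in the Vege of the Δ*veA* and Δ*laeA* strains. They were chosen by their counts: for each gene the mean CPM (counts of the gene scaled by the library total) was taken in each group, r was computed as the log2 ratio of the mutant mean plus 0.5 CPM to the WT mean plus 0.5 CPM, and the median r of all genes averaging at least 1 CPM over the 9 libraries was subtracted. This median was −0.23 in the Δ*veA*-labelled libraries and −0.31 in Δ*laeA*, so r is read against the middle gene of each comparison. A gene was a member when r was at least 1 (2-fold higher) in one mutant and at most −1 (2-fold lower) in the other, and its mean reached 2 CPM in some group. Of the 8775 genes at or above 2 CPM, 26 met the rule by being higher in the Δ*veA*-labelled libraries and lower in Δ*laeA*, and 39 by being lower in the Δ*veA*-labelled libraries and higher in Δ*laeA*. Without the subtraction the rule took 32 and 26 genes, 46 of them members. Both comparisons with WT, the comparison between the mutants and all 9 libraries went into this choice, and both comparisons share the same WT libraries, so the levels and r values of the members are a description and carry no test.

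The study profiled Vege, the vegetatively growing cells of liquid shake cultures, in 3 strains with 3 libraries each. All strains grew for 24 h in the dark at 37 °C and 220 rpm in minimal medium with 1% glucose, and each genotype was 1 strain: a wild type (WT), a Δ*veA* strain with *veA* replaced by *argB* (Δ*veA*::*argB*), and a Δ*laeA* strain with *laeA* replaced by methG (Δ*laeA*::methG) in a methG1 background with *veA*. It is not stated whether the 3 libraries of a group came from separate cultures, so the spread between them may be partly technical. Values after ± are SE of r over the 3 libraries of each group compared, unless SD is named.

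VeA is a velvet-family protein that enters the nucleus in the dark together with VelB, and both meet LaeA there. LaeA is a methyltransferase-like protein known as a regulator of secondary metabolite gene clusters, and the VelB-VeA-LaeA complex is known for coupling sexual development in the dark to secondary metabolism. Chitinases act on the cell wall, and many cytochrome P450 enzymes act in the making of secondary metabolites. The 2 members with a gene symbol bear names of such enzymes.

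The counts per library ranged from 13396869 to 35755046, with a median of 20346515. In Δ*laeA* the counts of *laeA* (AN0807) came to 4.53, 6.06 and 5.11 CPM, against 39.2 to 43.4 CPM in WT and 39.01 to 48.3 CPM in the Δ*veA*-labelled libraries. *veA* (AN1052) had 133, 123 and 124 CPM in WT, 779.5, 744 and 743 CPM in the Δ*veA*-labelled libraries, and 61.98, 65.1 and 66.4 CPM in Δ*laeA*. The gene said to be deleted in the Δ*veA*-labelled libraries was thus highest there, which goes against their label. *argB* (AN4409), the marker of that deletion, had 434, 440.4 and 425 CPM in the Δ*veA*-labelled libraries against 91.2 to 93.8 CPM in WT and 92 to 100 CPM in Δ*laeA*. The level of *argB* thus went with the label where that of *veA* did not, and the label was not settled. *metG* (AN7051), read as the marker of the Δ*laeA* strain, averaged 37 CPM in WT, 52.6 CPM in the Δ*veA*-labelled libraries and 98.8 CPM in Δ*laeA*. Every direction given here for these libraries rests on their label. Of 4 marker genes of hyphae none was at 0 in any library, and their summed level was 5879 to 6037 CPM in WT, 10470 to 11370 CPM in the Δ*veA*-labelled libraries and 10840 to 11510 CPM in Δ*laeA*. The 7 markers of conidiophores and conidia summed to 78.3 to 82.2, 26.3 to 27.2 and 29.2 to 34.6 CPM in the same order, and the 4 markers of sexual structures to 2517 to 2606, 211 to 234 and 491 to 526 CPM. Both sums were lower in both mutants, whereas the members moved in opposite directions, and the part of these cell types in the members' levels was not tested. Single genes led the hyphal and sexual sums. The means of *gpdA* (AN8041) were 3717, 7598 and 8764 CPM and those of *esdC* (AN9121) 2136, 67.4 and 313 CPM, in the same order. Not all markers moved alike: r was −0.11 and 0.31 for *nsdD* (AN3152) and −0.135 and −0.07 for *yA* (AN6635), the Δ*veA*-labelled libraries first. In bulk RNA, fewer cells of a type and less RNA per cell cannot be told apart.

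**Figure D1:**
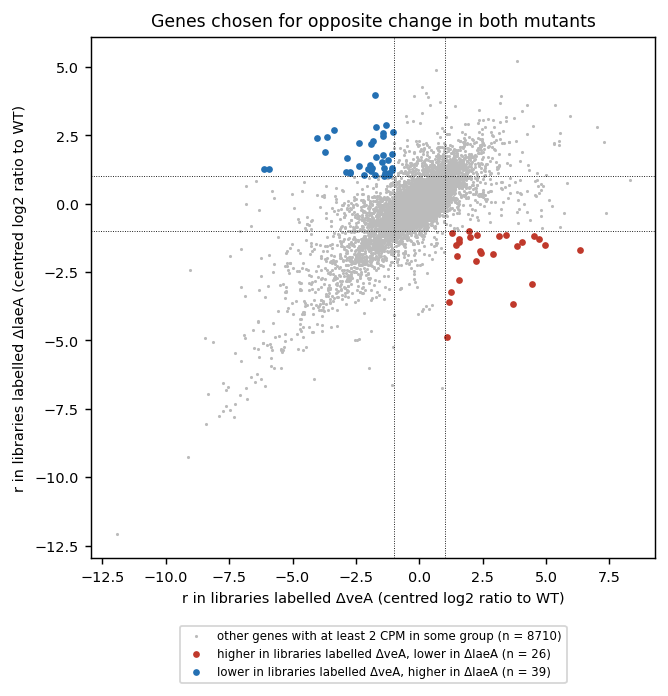
Each point is a gene whose mean reached 2 CPM in some group, placed by its r (centred log2 ratio to WT) in the ΔveA-labelled libraries (x axis) and in ΔlaeA (y axis), with dotted lines at −1 and 1. The 26 red points at lower right and the 39 blue points at upper left are the members and fill these corners because the rule set their limits, while the other 8710 genes are grey.

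In the 26 genes higher in the Δ*veA*-labelled libraries, r ran from 1.10 to 6.34 with a median of 2.33 in these libraries, and from −4.89 to −1.002 with a median of −1.53 in Δ*laeA*. By r the rise was the larger of the changes in 20 of them, with 15 at 4-fold or more and 10 at 8-fold or more, against 7 and 4 for the fall in Δ*laeA*. In the 39 genes lower in the Δ*veA*-labelled libraries, r ran from −6.12 to −1.02 with a median of −1.76 there, and from 1.002 to 3.98 with a median of 1.41 in Δ*laeA*. In 24 of these, by r, the fall in the Δ*veA*-labelled libraries was the larger change, with 14 at 4-fold or more and 6 at 8-fold or more, against 12 and 1 for the rise in Δ*laeA*. By r, 3 genes of the first direction and 4 of the second reached 4-fold in both mutants. These counts depend on the 0.5 CPM added, which holds r small for genes near 0. By the edgeR log2 fold change, the first direction had 17 genes at 4-fold or more and 10 at 8-fold or more in the Δ*veA*-labelled libraries, against 15 and 9 in Δ*laeA*, with 9 at 4-fold in both. The second direction had 16 and 10 against 12 and 1, with 6 at 4-fold in both. The change in the Δ*veA*-labelled libraries was then the larger in 17 genes of the first direction and 27 of the second.

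In all 65 members the 3 libraries of each group stood apart from those of the other groups, with the WT libraries in the middle, an order seen in 10.7% of the 8775 genes at or above 2 CPM (6.8% with the Δ*veA*-labelled libraries highest, 3.9% with Δ*laeA* highest). All 65 were also DEGs in both mutants by edgeR's quasi-likelihood test (adjusted p under 0.05 by Benjamini-Hochberg over 9481 genes, and more than 2-fold), where the share of all tested genes called in opposite directions was 1.09% (0.432% higher in the Δ*veA*-labelled libraries and lower in Δ*laeA*, 0.654% the reverse). Calls in single comparisons covered 13.6% (higher) and 19.9% (lower) of tested genes for the Δ*veA*-labelled libraries and 9.9% and 14.5% for Δ*laeA*. Since the rule used the same contrasts, nothing is read from these counts. The edgeR calls in opposite directions numbered 103, of which 38 were not members, and 9 of these 38 stayed below 2 CPM in every group.

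The rule can be applied to part of the libraries and read in the rest. When replicate 1, 2 or 3 of every group was left out, the other 6 libraries chose 69, 62 and 67 genes, of which 60, 60 and 62 were members. Every gene so chosen had both signs again in the 3 libraries left out. Of the genes chosen, 56, 55 and 53 were also past 2-fold in both mutants in the left-out libraries alone, against 0.763%, 0.81% and 0.764% of all genes at or above 2 CPM. These shares cover 67, 71 and 67 genes and include the 56, 55 and 53 chosen ones. The share of all genes with both signs is not given. The replicates of a group come from 1 strain, so these counts describe repeat libraries of the same strains and carry no test.

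**Figure D2:**
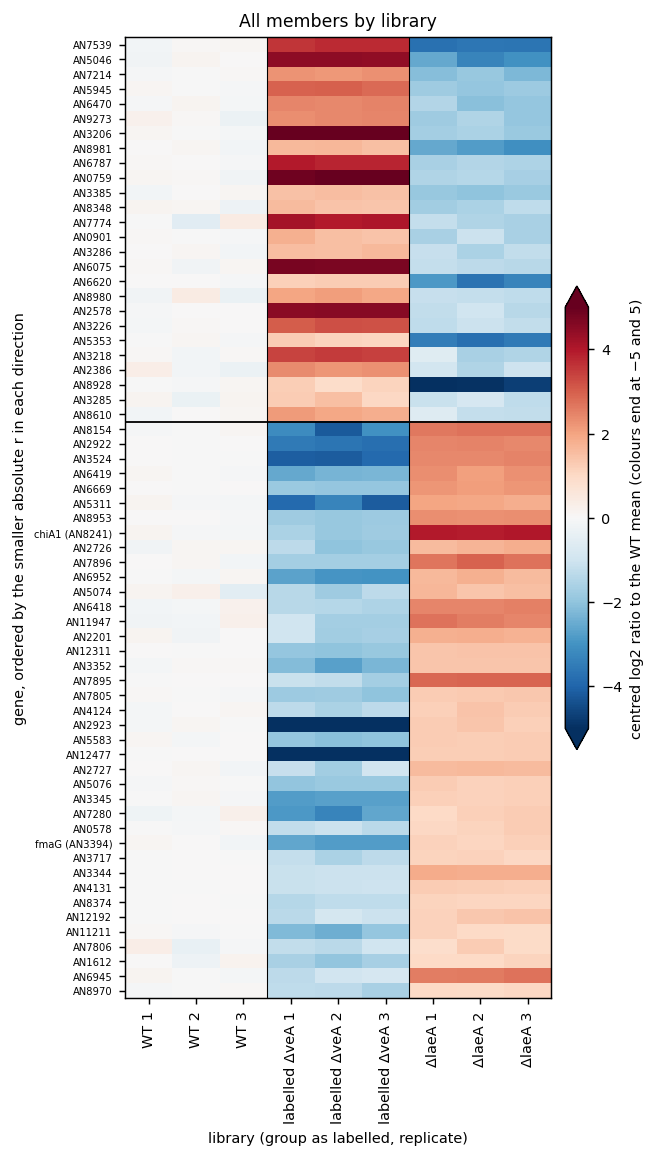
Rows are the 65 members, ordered in each direction by the smaller of their absolute r values, and columns are the 9 libraries. Colour gives the centred log2 ratio of each library to the WT mean (with 0.5 CPM added), red for higher and blue for lower, ending at −5 and 5. The 3 libraries of a group carry like colours in nearly every row, and the upper 26 rows and lower 39 rows show the opposite order of the mutants.

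Among the genes higher in the Δ*veA*-labelled libraries, AN7539 had the largest change when judged by the smaller of its r values. AN7539 had 159, 185 and 188 CPM in WT, 1829, 2023 and 2034 CPM in the Δ*veA*-labelled libraries, and 10.3, 11.2 and 11.01 CPM in Δ*laeA*. Its r was 3.69 ± 0.09 in the Δ*veA*-labelled libraries and −3.67 ± 0.08 in Δ*laeA*. In mean CPM, with no centring and nothing added, the Δ*veA*-labelled libraries had 181 times the level of Δ*laeA*. It was 1 of the 3 genes of this direction past 4-fold in both mutants by r, with AN5046 and AN7214.

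AN5046 had 4.93, 6.15 and 5.76 CPM in WT, 115, 116 and 114 CPM in the Δ*veA*-labelled libraries, and 0.34, 0 and 0.0983 CPM in Δ*laeA*. Its r was 4.47 ± 0.09 in the Δ*veA*-labelled libraries and −2.94 ± 0.24 in Δ*laeA*. With 0 counts in replicate 2 of Δ*laeA*, r understates the fall of this gene because of the 0.5 CPM added. Its edgeR log2 fold changes were 4.58 in the Δ*veA*-labelled libraries and −5.08 in Δ*laeA*, against 3.72 and −3.71 for AN7539. By that measure AN5046 ranked above AN7539. AN7214 had 35.8, 36.8 and 39.3 CPM in WT, 153, 145 and 155 CPM in the Δ*veA*-labelled libraries, and 6.51, 7.72 and 5.898 CPM in Δ*laeA*, with r of 2.23 ± 0.05 in the Δ*veA*-labelled libraries and −2.08 ± 0.11 in Δ*laeA*. In both genes every library labelled Δ*veA* lay above every WT library, and every Δ*laeA* library below.

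AN5945 had 26.6, 24.3 and 23.8 CPM in WT, 166, 172 and 153 CPM in the Δ*veA*-labelled libraries, and 5.55, 4.93 and 5.41 CPM in Δ*laeA*, with r of 2.92 ± 0.07 in the Δ*veA*-labelled libraries and −1.83 ± 0.07 in Δ*laeA*. AN6470 had 8.36, 9.82 and 8.34 CPM in WT, 43.1, 41.7 and 43.7 CPM in the Δ*veA*-labelled libraries, and 2.21, 1.26 and 1.47 CPM in Δ*laeA*, with r of 2.44 ± 0.08 in the Δ*veA*-labelled libraries and −1.81 ± 0.20 in Δ*laeA*. For these 2 the distance between the mutants was 30.9-fold and 25.97-fold in mean CPM, and the groups did not overlap.

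AN3206 held the largest r of all members in the Δ*veA*-labelled libraries. It had 2.39, 2.15 and 1.99 CPM in WT, 186, 182 and 188 CPM in the Δ*veA*-labelled libraries, and 0.17, 0.218 and 0.0983 CPM in Δ*laeA*, which gave r of 6.34 ± 0.06 in the Δ*veA*-labelled libraries and −1.71 ± 0.10 in Δ*laeA*. From WT levels near the 2 CPM limit it rose above 180 CPM in each of these 3 libraries, while its Δ*laeA* libraries held 2 to 5 counts. AN9273 was low throughout, with 2.24, 1.96 and 1.44 CPM in WT, 9.64, 10.2 and 10.5 CPM in the Δ*veA*-labelled libraries, and 0.0566, 0.174 and 0 CPM in Δ*laeA*, and its r was 2.38 ± 0.15 in the Δ*veA*-labelled libraries and −1.74 ± 0.19 in Δ*laeA*. The Δ*laeA* libraries of this gene held 0 to 4 counts, so the depth limits how far its fall can be measured.

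AN3226 had 194, 214 and 209 CPM in WT, 1446, 1650 and 1601 CPM in the Δ*veA*-labelled libraries, and 68.2, 78.7 and 69.8 CPM in Δ*laeA*, with r of 3.15 ± 0.07 in the Δ*veA*-labelled libraries and −1.20 ± 0.08 in Δ*laeA*. AN2578 had 54.6, 57.1 and 57.3 CPM in WT, 1113, 1145 and 1124 CPM in the Δ*veA*-labelled libraries, and 19.04, 22.3 and 17.2 CPM in Δ*laeA*, with r of 4.54 ± 0.03 in the Δ*veA*-labelled libraries and −1.20 ± 0.11 in Δ*laeA*. Both rose over 8-fold in the Δ*veA*-labelled libraries, and their fall in Δ*laeA* was close to the 2-fold limit.

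The rise was also the larger change by r in AN0759, AN6075, AN6787, AN7774 and AN3218. AN0759 had 3.08 to 3.88 CPM in WT, 102 to 111 CPM in the Δ*veA*-labelled libraries and 0.541 to 0.741 CPM in Δ*laeA*, with r of 4.95 ± 0.10 in the Δ*veA*-labelled libraries and −1.52 ± 0.12 in Δ*laeA*. AN6075 had 7.22 to 8.89 CPM in WT, 194 to 201 CPM in the Δ*veA*-labelled libraries and 2.21 to 2.61 CPM in Δ*laeA*, with r of 4.73 ± 0.09 in the Δ*veA*-labelled libraries and −1.29 ± 0.10 in Δ*laeA*, and AN6787 had 22.3 to 24.3 CPM in WT, 284 to 318 CPM in the Δ*veA*-labelled libraries and 5.72 to 6.496 CPM in Δ*laeA*, with r of 3.86 ± 0.06 in the Δ*veA*-labelled libraries and −1.54 ± 0.06 in Δ*laeA*. AN7774 and AN3218 also exceeded 8-fold in the Δ*veA*-labelled libraries, with r of 4.06 ± 0.29 and 3.44 ± 0.08. Their r in Δ*laeA* was −1.42 ± 0.31 and −1.15 ± 0.33, with a wide SE. In Δ*laeA* AN7774 held 3 counts or fewer per library, and its edgeR log2 fold change there was −3.86, so r understates its fall. The edgeR log2 fold change of AN0759 in Δ*laeA* was −2.12.

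The fall was the larger change by r in 6 genes of this direction, 4 of which fell 4-fold or more. Of these, AN8928, AN5353 and AN6620 had the lowest r in Δ*laeA*. AN8928 had 19.9, 19.2 and 21.6 CPM in WT, 41.4, 33.1 and 38.05 CPM in the Δ*veA*-labelled libraries, and 0, 0.0436 and 0.147 CPM in Δ*laeA*, with r of 1.10 ± 0.10 in the Δ*veA*-labelled libraries and −4.89 ± 0.12 in Δ*laeA*, the lowest value of any member in Δ*laeA*. At 0, 1 and 3 counts in Δ*laeA* it was close to undetected there, while its rise was near the limit of the rule. AN5353 had 24.5 to 27.7 CPM in WT, 46.6 to 53.9 CPM in the Δ*veA*-labelled libraries and 1.05 to 1.42 CPM in Δ*laeA*, with r of 1.16 ± 0.08 in the Δ*veA*-labelled libraries and −3.59 ± 0.11 in Δ*laeA*. AN6620 had 25.8 to 27.7 CPM in WT, 53.6 to 56.9 CPM in the Δ*veA*-labelled libraries and 1.22 to 2.55 CPM in Δ*laeA*, with r of 1.26 ± 0.04 in the Δ*veA*-labelled libraries and −3.25 ± 0.24 in Δ*laeA*.

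**Figure D3:**
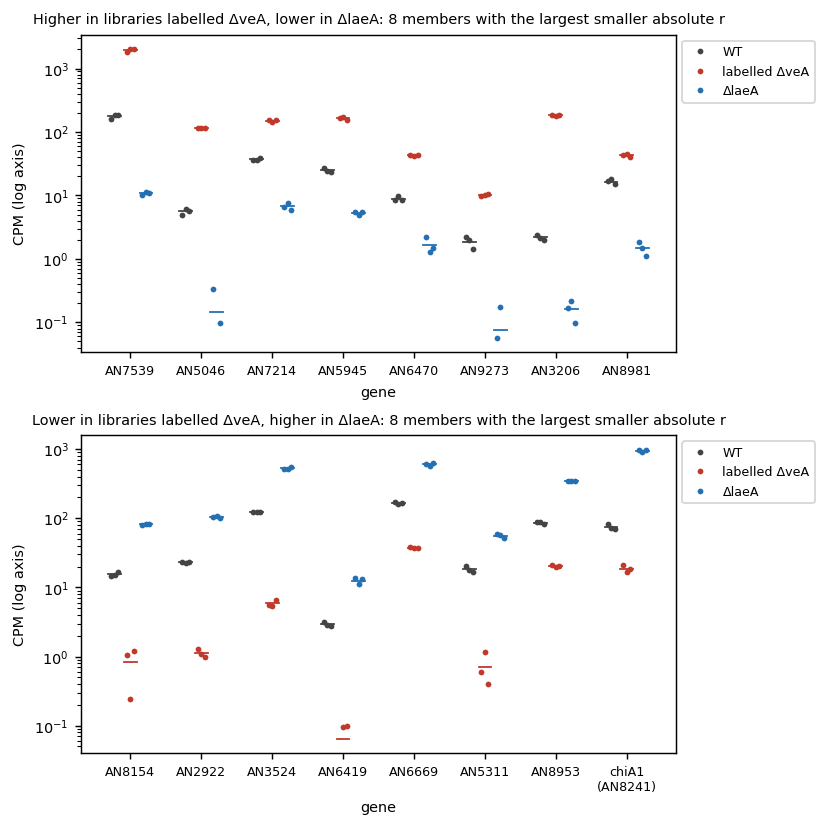
CPM of each library (points) and the mean of each group (short lines) on a log axis, for the 8 members of each direction with the largest smaller absolute r. WT is grey, the ΔveA-labelled libraries are red and ΔlaeA is blue, and libraries at 0 CPM (1 each of AN5046, AN9273 and AN6419) cannot be drawn on a log axis. In all 16 genes the WT points lie between those of the mutants, as the rule requires of the group means.

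Among the genes lower in the Δ*veA*-labelled libraries and higher in Δ*laeA*, chiA1 (AN8241) is one of only 2 members that carry a gene symbol in the RefSeq table. It encodes a chitinase, an enzyme that cuts the chitin of the fungal cell wall. chiA1 had 82.7, 71.2 and 70.01 CPM in WT, 20.9, 16.6 and 18.4 CPM in the Δ*veA*-labelled libraries, and 961, 921 and 984 CPM in Δ*laeA*. Its r was −1.75 ± 0.12 in the Δ*veA*-labelled libraries and 3.98 ± 0.08 in Δ*laeA*, the largest rise of any member in Δ*laeA*, and its Δ*laeA* mean was 51.3 times that of the Δ*veA*-labelled libraries. The SD of its CPM was 7.004 in WT, 2.19 in the Δ*veA*-labelled libraries and 32.1 in Δ*laeA* (n = 3 each), well below these distances.

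The other member with a symbol is fmaG (AN3394), a name given in *Aspergillus fumigatus* to a cytochrome P450 of the fumagillin cluster. fmaG had 35.9, 33.4 and 30.04 CPM in WT, 4.26, 3.64 and 3.65 CPM in the Δ*veA*-labelled libraries, and 59.2, 56.2 and 61.04 CPM in Δ*laeA*, with r of −2.72 ± 0.10 in the Δ*veA*-labelled libraries and 1.13 ± 0.08 in Δ*laeA*. Its fall in the Δ*veA*-labelled libraries was steep and its rise in Δ*laeA* modest. The gene before it in the RefSeq order, AN3395, had r of −2.65 and −0.39 in the same order, a fall in the Δ*veA*-labelled libraries and no DEG call in Δ*laeA*.

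AN8154 had the largest change of this direction by the smaller r. It had 14.6, 15.1 and 16.5 CPM in WT, 1.04, 0.239 and 1.18 CPM in the Δ*veA*-labelled libraries, and 79.3, 83.97 and 82.9 CPM in Δ*laeA*, with r of −3.36 ± 0.38 in the Δ*veA*-labelled libraries and 2.68 ± 0.06 in Δ*laeA*. In the Δ*veA*-labelled libraries, replicate 2 held 5 counts and lay below the other 2 libraries, which gave the widest SE of r among all members. AN3524 had 124, 121 and 122 CPM in WT, 5.61, 5.41 and 6.66 CPM in the Δ*veA*-labelled libraries, and 519, 524 and 549.5 CPM in Δ*laeA*, with r of −4.04 ± 0.09 in the Δ*veA*-labelled libraries and 2.42 ± 0.03 in Δ*laeA*. These genes, with AN2922 and AN6419, were the 4 of this direction past 4-fold in both mutants by r.

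AN6669 had 169, 163 and 167 CPM in WT, 38.7, 37 and 37.01 CPM in the Δ*veA*-labelled libraries, and 616, 576 and 629 CPM in Δ*laeA*, with r of −1.91 ± 0.03 in the Δ*veA*-labelled libraries and 2.17 ± 0.04 in Δ*laeA*. AN8953 had 87.6, 87.8 and 83.3 CPM in WT, 21.02, 19.4 and 20.4 CPM in the Δ*veA*-labelled libraries, and 347, 346 and 350.3 CPM in Δ*laeA*, with r of −1.83 ± 0.04 in the Δ*veA*-labelled libraries and 2.31 ± 0.03 in Δ*laeA*. The libraries of both genes were tightly grouped, and the changes in the mutants were of like size. AN5311 had 20.3, 17.6 and 16.9 CPM in WT, 0.592, 1.15 and 0.395 CPM in the Δ*veA*-labelled libraries, and 59.03, 57.03 and 52.4 CPM in Δ*laeA*, with r of −3.73 ± 0.27 in the Δ*veA*-labelled libraries and 1.90 ± 0.09 in Δ*laeA*, so that it was close to absent in the Δ*veA*-labelled libraries.

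AN4131 had 364, 366 and 370 CPM in WT, 145, 148 and 152 CPM in the Δ*veA*-labelled libraries, and 710.2, 689 and 680.1 CPM in Δ*laeA*, with r of −1.08 ± 0.02 in the Δ*veA*-labelled libraries and 1.22 ± 0.02 in Δ*laeA*. AN5583 had 369.8, 323 and 347 CPM in WT, 77.8, 69.9 and 72.2 CPM in the Δ*veA*-labelled libraries, and 670.3, 665 and 674 CPM in Δ*laeA*, with r of −2.01 ± 0.07 in the Δ*veA*-labelled libraries and 1.26 ± 0.06 in Δ*laeA*. In Δ*laeA* both were close to the 2-fold limit.

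The deepest falls in the Δ*veA*-labelled libraries were those of AN2923 and AN12477. AN12477 had 142, 146 and 148 CPM in WT, 1.41, 1.77 and 1.43 CPM in the Δ*veA*-labelled libraries, and 279, 278 and 284 CPM in Δ*laeA*, with r of −5.93 ± 0.08 in the Δ*veA*-labelled libraries and 1.25 ± 0.02 in Δ*laeA*, a 182-fold distance between the mutants in mean CPM. AN2923 had 39.4, 45.2 and 41.8 CPM in WT, 0.0282, 0.0479 and 0 CPM in the Δ*veA*-labelled libraries, and 81.7, 89.3 and 77.7 CPM in Δ*laeA*, with r of −6.12 ± 0.07 in the Δ*veA*-labelled libraries and 1.27 ± 0.08 in Δ*laeA*. In the Δ*veA*-labelled libraries, AN2923 held at most 1 count per library, and the rise of both genes in Δ*laeA* was close to the limit. The steepest rises in Δ*laeA* after chiA1 were those of AN7895, AN7896, AN8154, AN6945 and AN11947, with r of 2.89 ± 0.03, 2.79 ± 0.10, 2.68 ± 0.06, 2.62 ± 0.08 and 2.58 ± 0.15.

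Of the members, 61 are in the RefSeq gene table, and their places in the gene order were read there. In 7 places 2 members were direct neighbours, which took in 14 members, 4 of the first direction and 10 of the second. Allowing 1 gene between them gave 9 pairs and 18 members, and allowing 2 gave no further pair. In all 9 pairs both genes moved the same way. Neighbouring pairs of all genes on a chromosome numbered 10508, and how many pairs any 61 genes would give was not tested. The libraries are described as strand-specific and the counting of the reads with default settings, and no strand setting is named. How reads shared by overlapping neighbours were counted is therefore not stated.

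The neighbours AN2923 and AN2922 lay between genes that changed otherwise. AN2922 had 23.4, 22.9 and 23.3 CPM in WT, 1.27, 1.101 and 0.987 CPM in the Δ*veA*-labelled libraries, and 103, 107 and 102 CPM in Δ*laeA*, with r of −3.65 ± 0.07 in the Δ*veA*-labelled libraries and 2.45 ± 0.02 in Δ*laeA*. AN2924 and AN2921, the genes on their outer sides, fell in both mutants, with r of −4.37 and −4.52 for AN2924 and −5.50 and −2.96 for AN2921 (the Δ*veA*-labelled libraries first, as in each such pair of values). All 4 genes thus fell in the Δ*veA*-labelled libraries, and in Δ*laeA* the inner genes rose while the outer genes fell. The next genes outwards included pex6 (AN2925), a peroxisome assembly gene, at 0.16 and 0.14.

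AN3345 had 98.8 to 111 CPM in WT, 12.4 to 13.02 CPM in the Δ*veA*-labelled libraries and 185 to 191 CPM in Δ*laeA*, with r of −2.75 ± 0.05 in the Δ*veA*-labelled libraries and 1.17 ± 0.05 in Δ*laeA*. Its neighbour AN3344 had 207 to 214 CPM in WT, 83.6 to 86.2 CPM in the Δ*veA*-labelled libraries and 596 to 616 CPM in Δ*laeA*, with r of −1.08 ± 0.02 in the Δ*veA*-labelled libraries and 1.83 ± 0.02 in Δ*laeA*. AN3346 beside them had r of −2.59 and 0.97 and fell just short of the rule in Δ*laeA*, and AN3347 beyond it had −0.06 and 2.12. In Δ*laeA* all 4 neighbours thus had positive r, and in the Δ*veA*-labelled libraries AN3347 was close to 0 where the other 3 were negative.

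AN6419 and AN6418 were neighbours with low counts. AN6419 had 3.21, 2.88 and 2.78 CPM in WT, 0, 0.0957 and 0.0987 CPM in the Δ*veA*-labelled libraries, and 13.5, 11.03 and 13.1 CPM in Δ*laeA*, with r of −2.39 ± 0.10 in the Δ*veA*-labelled libraries and 2.22 ± 0.10 in Δ*laeA*. AN6418 had 2.84 to 3.82 CPM in WT, 0.592 to 0.705 CPM in the Δ*veA*-labelled libraries and 15.8 to 16.6 CPM in Δ*laeA*, with r of −1.45 ± 0.13 in the Δ*veA*-labelled libraries and 2.48 ± 0.12 in Δ*laeA*. The 2 genes on either side of them were at or below 0.888 CPM in each group mean.

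AN2727 had 17.3 to 20.4 CPM in WT, 4.499 to 7.95 CPM in the Δ*veA*-labelled libraries and 46.5 to 47.1 CPM in Δ*laeA*, with r of −1.24 ± 0.24 in the Δ*veA*-labelled libraries and 1.59 ± 0.07 in Δ*laeA*. Its neighbour AN2726 had 7.02 to 8.64 CPM in WT, 1.34 to 2.42 CPM in the Δ*veA*-labelled libraries and 20.4 to 24.1 CPM in Δ*laeA*, with r of −1.71 ± 0.23 in the Δ*veA*-labelled libraries and 1.71 ± 0.11 in Δ*laeA*. Both genes were thus higher in Δ*laeA* by a like amount, with a wide SE in the Δ*veA*-labelled libraries. AN7805 had 49.4 to 52.6 CPM in WT, 10.5 to 12.4 CPM in the Δ*veA*-labelled libraries and 99.99 to 105 CPM in Δ*laeA*, with r of −1.86 ± 0.08 in the Δ*veA*-labelled libraries and 1.31 ± 0.03 in Δ*laeA*. Its neighbour AN7806 was close to the 2 CPM limit of the rule, with 1.54 to 2.84 CPM in WT, 0.383 to 0.641 CPM in the Δ*veA*-labelled libraries and 3.46 to 4.62 CPM in Δ*laeA*, and the gene on the other side, AN7804, had r of −2.17 and −0.25. AN5076 and AN5074, with r of −1.90 and 1.21 and −1.48 and 1.52, had AN5075 between them, which was higher in both mutants at 0.91 and 1.49.

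The pair AN7895 and AN7896 has between them 1 RefSeq gene with no row of that name in the counts. AN7896 is the only member on any of the 19 gene lists and stands on that of the dba cluster, which makes azaphilones. The lists held 172 genes with a row, of which 1 was a member, against 65 of all 10988 rows. AN7896 had 3.88, 4.08 and 3.43 CPM in WT, 0.62, 0.622 and 0.641 CPM in the Δ*veA*-labelled libraries, and 21.9, 26.3 and 22.6 CPM in Δ*laeA*, with r of −1.70 ± 0.07 in the Δ*veA*-labelled libraries and 2.79 ± 0.10 in Δ*laeA*. AN7895 had 14.03, 14.4 and 14.7 CPM in WT, 5.38, 4.93 and 3.45 CPM in the Δ*veA*-labelled libraries, and 86.4, 88.98 and 90.3 CPM in Δ*laeA*, with r of −1.32 ± 0.18 in the Δ*veA*-labelled libraries and 2.89 ± 0.03 in Δ*laeA*. Of the 8 genes on the dba list 7 were tested, and by edgeR's quasi-likelihood test (Benjamini-Hochberg over all genes) 4 were DEGs that fell in the Δ*veA*-labelled libraries and 6 were DEGs that rose in Δ*laeA*, with none the other way. Their median log2 fold changes were −1.93 and 1.52, against 0.0012 and −0.0041 for all 9481 genes tested. The list's other genes stayed at or below 2.48 CPM in each group mean, among them AN7897, next to AN7896, with r of −1.63 and 0.89.

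The first direction held AN8981 with AN8980 and AN3286 with AN3285 as its neighbouring pairs. AN8981 had 16.6, 17.98 and 15.04 CPM in WT, 44.02, 45.04 and 40.6 CPM in the Δ*veA*-labelled libraries, and 1.87, 1.48 and 1.13 CPM in Δ*laeA*, with r of 1.58 ± 0.09 in the Δ*veA*-labelled libraries and −2.79 ± 0.17 in Δ*laeA*. AN8980 had 1.59 to 2.99 CPM in WT, 8.04 to 9.09 CPM in the Δ*veA*-labelled libraries and 0.393 to 0.453 CPM in Δ*laeA*, with r of 1.99 ± 0.23 in the Δ*veA*-labelled libraries and −1.21 ± 0.23 in Δ*laeA*. AN8979, which follows them, is on the carbon use list and had 106, 112 and 108 CPM in WT, 90.9, 83.2 and 96.9 CPM in the Δ*veA*-labelled libraries, and 5.72, 4.93 and 4.08 CPM in Δ*laeA*. Its r was −0.05 and −4.04, a fall in Δ*laeA* that was called and no call in the Δ*veA*-labelled libraries, whereas AN8982 on the other side fell in both mutants, with −2.03 and −1.67. AN3286 and AN3285 had r of 1.56 and −1.31 and 1.28 and −1.07, at 4.67 to 5.62 and 3.75 to 5.41 CPM in WT, and none of the 3 genes with counts within 2 places of them had opposite signs.

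**Figure D4:**
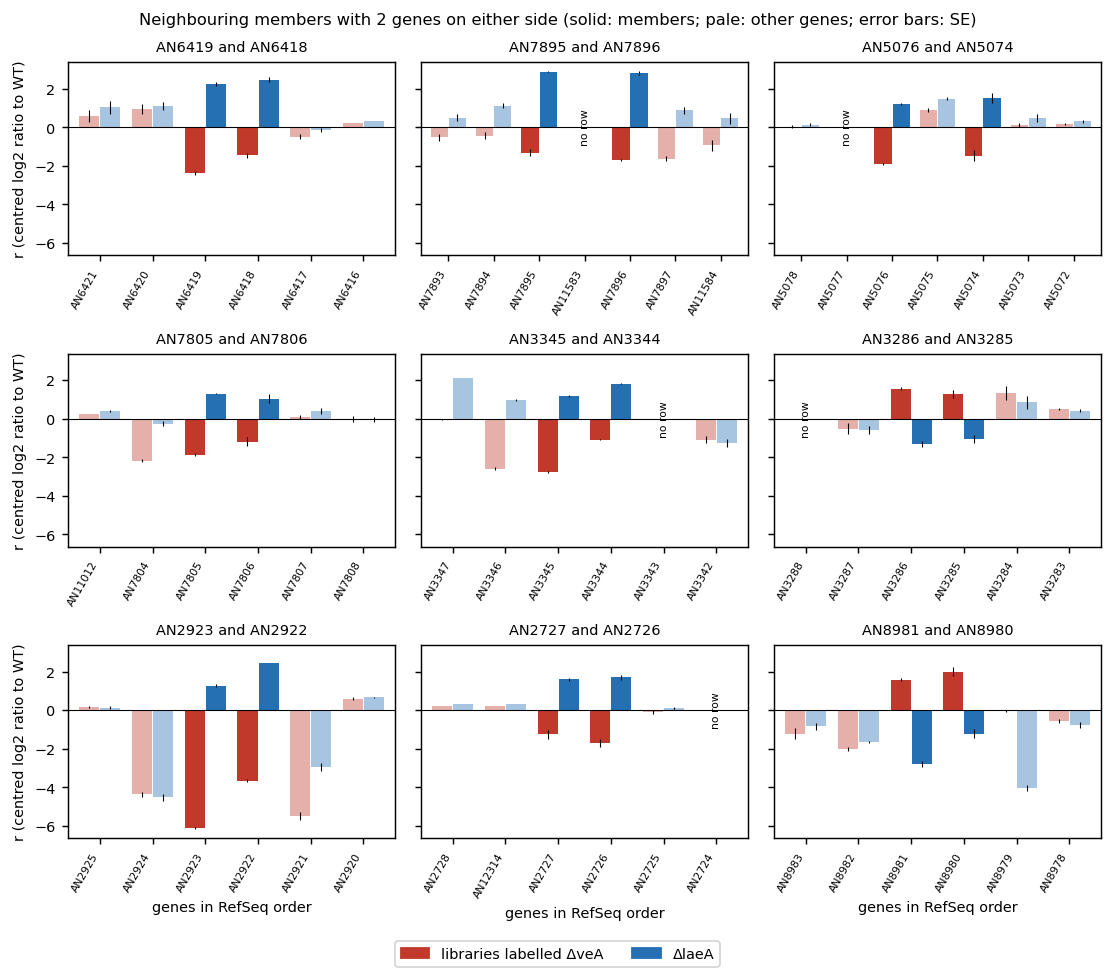
Bars give r (centred log2 ratio to WT, with SE) of neighbouring members (solid) and of up to 2 genes on either side (pale) in RefSeq gene order, red for the ΔveA-labelled libraries and blue for ΔlaeA. A place marked no row has no row of that ID in the counts. In each of the 9 panels the members move the same way, and AN2924 and AN2921, on either side of AN2923 and AN2922, fell in both mutants.

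The direct neighbours that were not members were mixed. Beside the genes higher in the Δ*veA*-labelled libraries there were 47 such neighbours with counts, of which 9 had the signs of the member and 18 were under 2-fold in both mutants. Beside the genes of the other direction there were 48, of which 13 had the signs of the member and 25 were under 2-fold in both. Among them were 3 and 5 genes down at least 2-fold in both mutants, and 3 and 1 up in both. The same shares over all genes are not given, so nothing is read from these counts. Past AN7539, AN7541 rose in the Δ*veA*-labelled libraries with r of 4.81 ± 0.04 and had −0.45 ± 0.11 in Δ*laeA*. AN2387, next to the member AN2386, had 5.70 ± 0.19 and −0.32 ± 0.24. The gene after chiA1, AN8242, had r of −1.08 and 0.96, just short of the rule in Δ*laeA*.

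None of the other 18 lists held a member, and given the small share of members among all rows nothing is read from this. On the penicillin list, 2 of 3 genes were tested and both were DEGs that rose in the Δ*veA*-labelled libraries and fell in Δ*laeA*, with median log2 fold changes of 1.21 and −2.12. Neither was a member. AN2622 had 1.12 to 1.45 CPM in WT, 1.96 to 3.07 CPM in the Δ*veA*-labelled libraries and 0.147 to 0.227 CPM in Δ*laeA*, with r of 0.91 and −1.08. The other had r of 1.06 and −0.75, so it missed the rule in Δ*laeA*. On the carbon use list, 12 of 12 genes were tested, with 1 DEG that rose and 2 that fell in the Δ*veA*-labelled libraries, and 2 that rose and 4 that fell in Δ*laeA*, where rising and falling calls took 13.6% and 19.9% of all tested genes in the former and 9.9% and 14.5% in the latter. On the asexual development list 10 of 18 genes were DEGs that fell and 0 that rose in the Δ*veA*-labelled libraries, and 7 fell and 1 rose in Δ*laeA*. On the sexual development list 9 of 14 fell and 1 rose in the former, and 5 fell and 1 rose in the latter. All 13 genes of the monodictyphenone (mdp) list were DEGs that fell in both mutants.

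At the threshold, the members just inside the rule were AN8928, AN3285 and AN8610 in the first direction, with a smaller absolute r of 1.10, 1.07 and 1.002. Just outside it were AN12101, AN3573 and AN6234, with 0.96, 0.95 and 0.95. In the second direction AN1612, AN6945 and AN8970 lay just inside, with 1.04, 1.02 and 1.002, and AN8311, AN11292 and AN4125 just outside, with 0.999, 0.98 and 0.98. AN4125 is the neighbour of the member AN4124, at −1.39 and 1.30, and had r of −0.98 and 2.03 itself. AN6946, next to the member AN6945, was also just short at −0.98 and 2.23.

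The depth behind the members varied. In WT 10 of the 65 averaged 100 CPM or more, 4 had a mean under 2 CPM, and none had 3 counts or fewer in any library. In the group where they were low, 19 of the 39 genes of the second direction were under 2 CPM in the Δ*veA*-labelled libraries, and 18 of the 26 of the first direction were under 2 CPM in Δ*laeA*. There were 5 members with 3 counts or fewer in some library labelled Δ*veA* and 6 with 3 or fewer in some Δ*laeA* library. None was at 0 in all 3 libraries of a group. For these genes the 0.5 CPM added sets how large r can be and holds its SE small. Among all members r differed from the edgeR log2 fold change by up to 4.03, with a median difference of 0.089.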

How the data were processed

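Vege of 3 strains was sequenced as 3 libraries each. The authors mapped reads with HISAT2 2.1 and counted them per gene with featureCounts 1.5.0 (versions from the submitters' processing notes), and deposited raw counts. Default counting settings are described, and no strand setting is named. The 9 single-library files equal the columns of the table. No per-sample column was left unused. Rows repeating a gene ID (31, of which 30 had no read) were kept apart.

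CPM, group means and r were computed from these counts with Python 3.11.15 (pandas 2.3.3, numpy 2.4.6, matplotlib 3.10.9). Calls came from edgeR 4.0.16 in R 4.3.3: TMM factors, filterByExpr and the quasi-likelihood test fitted once to the 9 libraries. P-values were adjusted by the Benjamini-Hochberg method across 9481 genes, and a DEG needed adjusted p under 0.05 with a change over 2-fold. The test was checked on simulated data. DESeq2 1.42.0 was run as an alternative. The members and gene lists were chosen with earlier results of these data known. Replicate numbers did not enter the model.

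Genes named are members with a RefSeq symbol or on a list, the 8 per direction with the largest smaller absolute r, the 3 per direction with the highest mean CPM, neighbouring members, and the 3 genes per direction inside and outside the threshold, with *veA* and *laeA* as the check of the labels. AN0759, AN6075, AN6787, AN7774, AN3218, AN8928, AN5353, AN6620, AN12477, AN7895, AN11947, AN6945, AN5074, AN5076, AN4124, AN2386, AN2622, *argB*, *metG*, *gpdA*, *esdC*, *nsdD*, *yA* and genes beside members were named after their values were seen. Names and gene order are those of RefSeq for assembly ASM1142v1 (10032 rows matched, 779 with a symbol), which is not the record the study cites, so no coordinate, length or level per length is given. CPM, not corrected for length, served to name genes and does not rank transcript levels between them. Counting error alone sets the limits given, at 3 counts per library.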

Additional observations from a re-analysis of the deposited data

How the results depend on the processing

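With 2 CPM added in place of 0.5 CPM, the rule took 13 genes higher in the Δ*veA*-labelled libraries and lower in Δ*laeA* and 28 of the second direction, and with 0.1 CPM added 35 and 52. A 1.5-fold threshold took 56 and 98 genes in the first and second direction, and a 3-fold threshold 7 and 11. Leaving out 1 library gave 24 to 28 and 37 to 43 genes, and leaving out 1 replicate number of every group (an alternative chosen after seeing the data) 23 to 30 and 37 to 44. Scaling by TMM or RLE factors instead of centring gave 27 and 40, with 64 of the members. A filter of at least 10 counts in every library left 59 genes called in opposite directions, of which 50 were members. The 15 other members were not tested under it. With no fold minimum the DEGs were 7601 for the Δ*veA*-labelled libraries, 6960 for Δ*laeA* and 6645 between the mutants, with 798 in opposite directions, against 3181, 2312, 1740 and 103. With library totals alone, 48 of the members were called in both mutants. Without WT replicate 2, AN1612 was not called and 64 members were, and leaving out any other library kept all 65. The replicate block gave 3171, 2306 and 1726 DEGs and 102 opposite calls, with all 65 members called. Deviations from the group means correlated at −0.0404 to 0.101 in the 9 pairs of libraries with the same replicate number and at −0.0877 to 0.048 in the other 18, so the numbers were not taken as pairs. The log2 fold changes of the named genes were compared only with library totals alone, DESeq2, the replicate block and 1 library left out. Of these 1104 values, 989 moved by no more than 1 SD, 115 moved by more and none changed sign. SD here is that of log2 CPM (with 0.5 CPM added) between libraries, pooled over the mutant and WT. Most of these genes are members, chosen for a change of at least 2-fold in both mutants. Nothing is therefore read from the kept signs or from the members that stayed called. The shares of promoter motifs and protein features were planned but not run, and no sequence was analysed here.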
